A study of Mus musculus with 20 samples.

Results

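The actin genes described here are the 6 of the mouse genome that encode the classical actins: the cardiac and skeletal alpha-actins Actc1 and Acta1, the smooth muscle actins Acta2 and Actg2, and the cytoplasmic actins Actb and Actg1. They were selected by symbol as a gene family, with earlier results of these data known, and are 6 of the 24059 genes in the count tables. All 6 were among the 14007 genes that passed the filter on low counts and were tested. Actin transcripts were counted in RNA from the free wall of left ventricles of male C57BL/6 mice aged about 9 to 13 weeks. CardioGRKO mice lack the glucocorticoid receptor in cardiomyocytes: they carry floxed alleles of its gene Nr3c1 and a Cre recombinase that the cardiomyocyte promoter of alpha myosin heavy chain drives. GRflox mice are littermates that carry the floxed alleles too, so the presence of Cre and the loss of the receptor cannot be told apart. Tissue was taken at ZT0, when the lights came on, or at ZT12, when they went off. There were 5 libraries of each genotype at each time, 20 in all. The labels number them without saying whether each is 1 animal, so p-values measure the spread between libraries.

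Actin monomers polymerise into filaments. In striated muscle these form the thin filaments along which myosin pulls, and in other cells they form the cortex and stress fibres. Adult mouse ventricle makes mainly the cardiac alpha-actin, while the skeletal and smooth muscle alpha-actins are made in the embryonic heart and are widely used as markers of the fetal gene programme that returns in a stressed heart. Many actin genes are driven by serum response factor (SRF), which binds CArG boxes in their promoters. Its coactivators of the myocardin and MRTF family sense the pool of free actin monomers.

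The libraries held 5854462 to 37648421 counts, with a median of 23223656. The CardioGRKO library with replicate number 1 at ZT0 was the shallowest, below a next lowest of 11143527 counts. The file of that shallowest library also carries another number than the remaining 19, and the sources used here do not say what it marks. The actins called at ZT0 and the list counts that moved by over 1.5 times are given with and without it. Nr3c1 was lower in every CardioGRKO library than in any GRflox library at the same time, with a log2 fold change of -1.06 ± 0.06 at ZT0 and -1.08 ± 0.06 at ZT12 (SE, n = 5 per group). The wall also holds vessels and connective tissue, and in such bulk RNA fewer cells of a type and less RNA per cell cannot be told apart. The 12 cardiomyocyte markers summed to 97840 to 104000 CPM in CardioGRKO and 109200 to 114000 CPM in GRflox at ZT0, and to 96900 to 111000 CPM in CardioGRKO and 115000 to 120000 CPM in GRflox at ZT12. CPM are counts per 1000000 counted reads, scaled by TMM. Of the 12, 2 were called higher and 5 lower in CardioGRKO at ZT0 (58.3%, beside 14.7% of all genes). At ZT12, 1 was called higher and 9 lower (83.3%, beside 21.1% of all genes). Without the shallowest library 1 was higher at ZT0 and 2 were higher at ZT12. The part of these differences in the results below was not tested. The 6 atrial markers, which include Nppa, a gene that stressed ventricle also makes, summed to 118.6 to 450.3 CPM in CardioGRKO and 77.5 to 217.8 CPM in GRflox at ZT0, and to 147.8 to 448.7 CPM in CardioGRKO and 95.8 to 285.4 CPM in GRflox at ZT12. Between the genotypes, the 5 that were tested had a median log2 fold change of -0.58 at ZT0 and -0.79 at ZT12. Only Nppa was called, higher in CardioGRKO at both times. That is 20% of the 5 at each time, beside 14.7% of all genes at ZT0 and 21.1% at ZT12. The part of the 6 atrial markers in the actin levels was not tested. Of them Bmp10 did not exceed 0.0334 CPM in any library, while Myl7, the atrial myosin light chain, ranged from 1.24 to 30.8 CPM in CardioGRKO and from 0.196 to 60.5 CPM in GRflox at ZT12.

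All 6 actin genes lie on the minus strand. By GRCm38.p6, the assembly also called mm10, Actc1 (Entrez gene 11464) spans chr2:114047282-114052875, Acta1 (11459) chr8:123891758-123894775, Acta2 (11475) chr19:34240336-34255585, Actg2 (11468) chr6:83512909-83536251, Actb (11461) chr5:142903115-142907976 and Actg1 (11465) chr11:120345687-120348495. Because actins are near copies of each other, the share of 75-base words (1 read length) of each transcript that also occurs in another gene's transcript was computed. It was 0 for Actc1, Acta2 and Actg2, 0.437% for Acta1, 2.6% for Actb and 54.5% for Actg1. The only words shared among the 6 were 3 common to Acta1 and Actb. The 10 other genes that share words with Actg1 are mostly processed copies of it, such as Actg-ps1. How reads that match several genes were counted, the sources used here do not say, so the level of Actg1 is uncertain.

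The promoters of the striated alpha-actin genes Acta1 and Actc1 are shown because the first differed most between the genotypes and the second is the main actin of the ventricle, and both are known targets of SRF. Each is the stretch of 250 bases before the start in the RefSeq promoter table, in GRCm38.p6, read 5′ to 3′ on the minus strand. Capitals mark CArG boxes, either exact or with 1 mismatch in the A and T stretch between the outer CC and GG.
Acta1, chr8:123894776-123895025: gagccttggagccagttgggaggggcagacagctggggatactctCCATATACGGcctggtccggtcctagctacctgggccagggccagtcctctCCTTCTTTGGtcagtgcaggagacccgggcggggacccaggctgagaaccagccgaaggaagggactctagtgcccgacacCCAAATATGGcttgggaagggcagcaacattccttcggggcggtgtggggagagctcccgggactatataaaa
Actc1, chr2:114052876-114053125: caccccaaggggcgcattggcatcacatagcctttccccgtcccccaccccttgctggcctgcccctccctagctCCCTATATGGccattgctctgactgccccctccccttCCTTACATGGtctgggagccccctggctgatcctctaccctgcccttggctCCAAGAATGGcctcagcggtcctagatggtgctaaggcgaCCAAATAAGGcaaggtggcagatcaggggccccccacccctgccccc

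The Acta1 promoter holds 1 exact CArG box, CCAAATATGG, 73 to 64 bases before the start, and 2 with 1 mismatch. Actc1 holds 1 exact box, CCAAATAAGG, 47 to 38 bases before the start, and 3 with 1 mismatch. For Acta2 the table places the start at base 34255373, which is 212 bases inside the gene span given above, so most of its window lies in an exon of the longer transcript and is not printed. That window holds no exact box and 2 with 1 mismatch, CCCTATATGG 84 to 75 bases and CCTTGTTTGG 34 to 25 bases before that start. Actg1, the 4th of the 6 genes with an entry, has 1 exact box, CCATATATGG, 90 to 81 bases before its start. In its window 47 bases lie in GENCODE exons of the gene, as do 12 bases in that of Actc1. Actb and Actg2 have no entry. Of all 32851 promoters of this length in the table, 1.47% hold an exact CArG box and 7.25% hold one with 1 mismatch. The motif AGAACA, a recognition motif of the glucocorticoid receptor, was searched on both strands. It occurs 2 times in the Acta2 window and 1 time in that of Actg1, does not occur in those of Acta1 and Actc1, and is found in 16.1% of all windows. The TATAAA motif, also searched on both strands, occurs in the Acta1 window, 7 to 2 bases before the start, and in 12.4% of all windows. These matches are descriptions of the letters and say nothing of binding in these hearts.

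Actc1 was by far the most abundant actin in every group. Per kilobase of transcript it stood at 7720 ± 299 CPM per kilobase in CardioGRKO and 7110 ± 196 in GRflox at ZT0, and at 6958 ± 527 in CardioGRKO and 6512 ± 19.6 in GRflox at ZT12 (mean ± SD, n = 5 each, as in the levels below). After it came Acta1, Actb, Acta2, Actg1 and Actg2, in this order of means in all 4 groups. Neighbours in this order did not always separate. Acta1 and Actb overlapped between libraries in GRflox at both times, as did Acta2 and Actg1 in GRflox at ZT0 and Actb and Acta2 in CardioGRKO at ZT12. In CardioGRKO Acta1 stood clear of Actb, 4.05-fold higher at ZT0 and 7.21-fold higher at ZT12. Actg2, the enteric smooth muscle actin, was barely detected, at 0.474 ± 0.197 to 1.08 ± 0.322 CPM per kilobase.

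**Figure D1:**
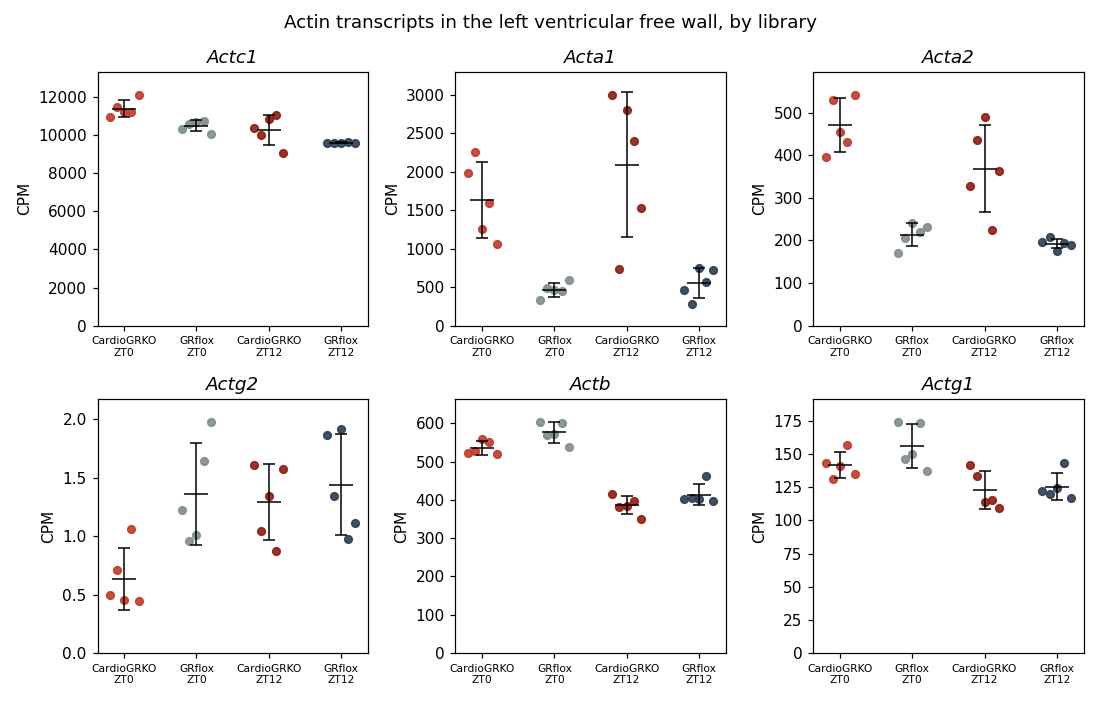
CPM of the 6 actin genes in each of the 20 libraries, with 1 panel per gene and the CardioGRKO group left of GRflox at each time. Points are libraries, and the bar and whiskers are the mean ± SD of 5. Acta1 and Acta2 stand higher in CardioGRKO at both times, with 1 CardioGRKO library at ZT12 (743 CPM) inside the GRflox range of Acta1, and Actb stands lower at ZT12 than at ZT0 in both genotypes.

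The comparison of CardioGRKO with GRflox asks how the ventricle's transcripts differ at each time with Cre and the loss of the cardiomyocyte receptor together. At ZT0 Acta1 and Acta2 were higher and Actg2 was lower, while Actc1, Actb and Actg1 did not pass the threshold. At ZT12 Acta1 and Acta2 were again higher and the other 4 did not pass. By edgeR's quasi-likelihood test with Benjamini-Hochberg adjustment over 14007 genes and a threshold of 0.05, this makes 3 of 6 called at ZT0, where 14.7% of all genes were called, and 2 of 6 at ZT12, where 21.1% were called. The median log2 fold change of the 6 was 0.01 at ZT0 and 0.03 at ZT12, beside -0.01 and 0.004 over all genes.

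Acta1, the skeletal alpha-actin, had 1988, 2262, 1260, 1593 and 1069 CPM in the CardioGRKO libraries at ZT0, against 332, 498, 468, 455 and 592 CPM in the GRflox libraries. No CardioGRKO library reached down to the GRflox range. At ZT12 it had 3001, 743, 2801, 2400 and 1526 CPM in CardioGRKO, against 465, 282, 755, 574 and 729 CPM in GRflox. Here 4 of 5 CardioGRKO libraries lay above all GRflox libraries, and replicate 2 lay inside the GRflox range. The fold was 3.48 at ZT0 (adjusted p = 0.000145) and 3.73 at ZT12 (adjusted p = 4.59e-05), with 95% intervals of the log2 fold change of 1.19 to 2.41 and 1.29 to 2.51. Without that replicate 2 the log2 fold change at ZT12 was 2.12 ± 0.25, and without the shallowest library that at ZT0 was 1.72 ± 0.31. The spread of Acta1 between libraries was wide: its SD was 944 CPM on a mean of 2094 CPM in CardioGRKO at ZT12, where that of Actb was 23.6 CPM on 385.9 CPM.

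Acta2, the smooth muscle alpha-actin of vessel walls and myofibroblasts, had 397, 530, 454, 432 and 541 CPM in CardioGRKO at ZT0, against 172, 207, 240, 220 and 231 CPM in GRflox. At ZT12 it had 327, 435, 490, 225 and 363 CPM in CardioGRKO, against 197, 207, 176, 195 and 189 CPM in GRflox. The genotypes did not overlap at either time, although replicate 4 of CardioGRKO at ZT12, with 225 CPM, lay just above the highest GRflox library. The fold was 2.20 at ZT0 (adjusted p = 3.15e-06) and 1.91 at ZT12 (adjusted p = 2.22e-05). Without the shallowest library the log2 fold change at ZT0 was 1.20 ± 0.14.

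Actc1 had 10930, 11460, 11190, 11190 and 12090 CPM in CardioGRKO at ZT0, against 10290, 10580, 10670, 10750 and 10060 CPM in GRflox. All 5 CardioGRKO libraries lay above all GRflox libraries, but the gap was small. The log2 fold change was 0.12 ± 0.04 (adjusted p = 0.0754) with a 95% interval of 0.03 to 0.21 whose upper end lies below the lower ends of 1.19 for Acta1 and 0.85 for Acta2. At ZT12 it was 0.10 ± 0.04 (adjusted p = 0.137), and 1 CardioGRKO library, replicate 5 with 9068 CPM, lay below all GRflox libraries. At ZT0 Actc1 passed the threshold in 5 of 26 other settings, among them DESeq2 (adjusted p = 0.0435), the 2 compared groups alone (adjusted p = 0.0418) and scaling by library totals in place of TMM. With library totals it passed at both times, with log2 fold changes of 0.17 at ZT0 and 0.18 at ZT12. Without the shallowest library it was at 0.14 ± 0.05 at ZT0 (adjusted p = 0.0694).

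Actg2 had 3 to 35 counts in the CardioGRKO libraries and 23 to 62 in the GRflox libraries at ZT0. This came to 0.494, 0.708, 0.452, 1.06 and 0.442 CPM in CardioGRKO, against 1.22, 0.957, 1.01, 1.64 and 1.97 CPM in GRflox. Replicate 4 of CardioGRKO lay inside the GRflox range and the other 4 lay below it. The log2 fold change was -0.96 ± 0.29 (adjusted p = 0.0267). This call was lost in 7 of 26 other settings, with an adjusted p of up to 0.102: with a replicate block, and without replicate 4 or 5 of GRflox or replicate 1, 2, 3 or 5 of CardioGRKO at ZT0. Without the shallowest library it was at -0.92 ± 0.30 (adjusted p = 0.0501). At ZT12 the log2 fold change was -0.21 ± 0.26 (adjusted p = 0.625).

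Neither cytoplasmic actin was called between the genotypes. Actb had a log2 fold change of -0.10 ± 0.05 at ZT0 (adjusted p = 0.165, 95% interval -0.21 to -0.003) and of -0.10 ± 0.05 at ZT12 (adjusted p = 0.159, interval -0.20 to 0.001). For Actg1 it was -0.14 ± 0.08 at ZT0 (adjusted p = 0.252, interval -0.30 to 0.02) and -0.03 ± 0.08 at ZT12 (adjusted p = 0.849, interval -0.19 to 0.13). The intervals thus reach no further than -0.30 for either gene.

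**Figure D2:**
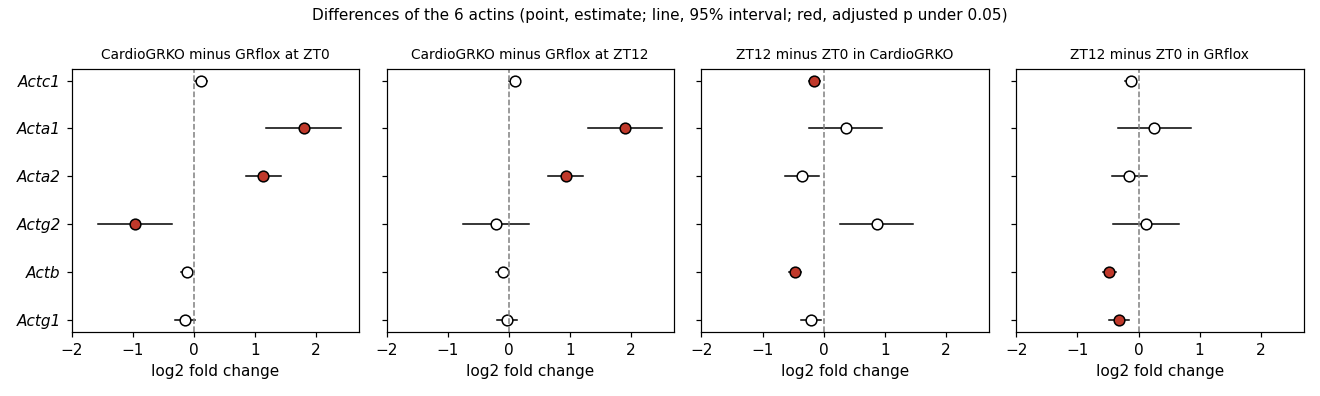
Log2 fold change of each actin in the 4 comparisons, with its 95% interval as a line and calls at an adjusted p under 0.05 in red. Acta1 (1.80 and 1.90) and Acta2 (1.14 and 0.93) lie right of 0 in both genotype comparisons, and Actb lies left of 0 in both time comparisons (-0.47 and -0.48).

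The balance of the isoforms differed accordingly. Per kilobase, Acta1 made up 12.7 ± 3.55% of the 2 striated alpha-actins Acta1 and Actc1 together in CardioGRKO and 4.36 ± 0.89% in GRflox at ZT0. At ZT12 this share was 16.7 ± 6.20% in CardioGRKO and 5.59 ± 1.86% in GRflox. Of all 6 actins per kilobase, Actc1 made up 81.9 ± 3.14% in CardioGRKO and 89.8 ± 0.72% in GRflox at ZT0, and 79.0 ± 5.36% in CardioGRKO and 89.5 ± 1.62% in GRflox at ZT12. The share of Acta2 was 2.45 ± 0.27% in CardioGRKO and 1.33 ± 0.16% in GRflox at ZT0, and 2.08 ± 0.65% in CardioGRKO and 1.30 ± 0.10% in GRflox at ZT12. Together the 6 genes took 1.44 ± 0.05% of all counts in CardioGRKO and 1.17 ± 0.03% in GRflox at ZT0, and 1.36 ± 0.16% in CardioGRKO and 1.05 ± 0.02% in GRflox at ZT12.

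**Figure D3:**
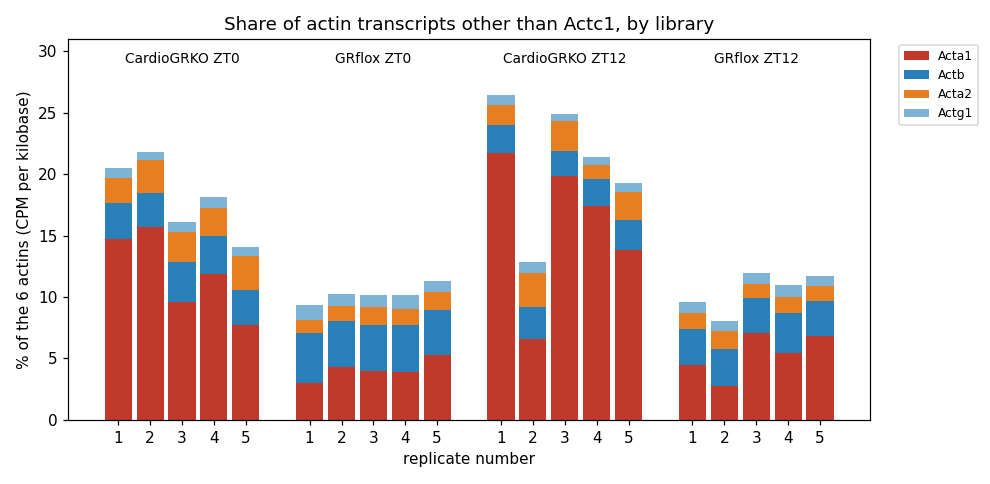
Share of Acta1, Actb, Acta2 and Actg1 in the 6 actins, from CPM per kilobase, in each library, so that Actc1 (and Actg2, at most 0.02%) makes up the rest to 100%. The stacks are higher in CardioGRKO than in GRflox at both times, mainly through Acta1, which ranges from 6.62% to 21.7% in CardioGRKO at ZT12 and from 2.76% to 7.06% in GRflox at ZT12.

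A ratio of 2 genes within a library does not depend on the scaling between libraries. The log2 ratio of Acta1 to Actc1 averaged -2.85 ± 0.48 in CardioGRKO and -4.50 ± 0.31 in GRflox at ZT0, a difference of 1.65, with no overlap (2-sided exact permutation test, p = 0.00794, the smallest that 5 against 5 allows, adjusted over 16 ratio tests to 0.0317). At ZT12 it averaged -2.45 ± 0.78 in CardioGRKO and -4.18 ± 0.58 in GRflox, a difference of 1.73 that did not pass the correction (exact permutation p = 0.0238, adjusted 0.0635). For Acta2 to Actc1 the difference was 1.02 at ZT0 (exact permutation test, adjusted p = 0.0317) and 0.79 at ZT12 (adjusted 0.0635). Acta1 to Acta2 differed by 0.63 at ZT0 and 0.93 at ZT12, neither past the threshold (exact permutation test, adjusted p = 0.0907 and 0.27).

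**Figure D4:**
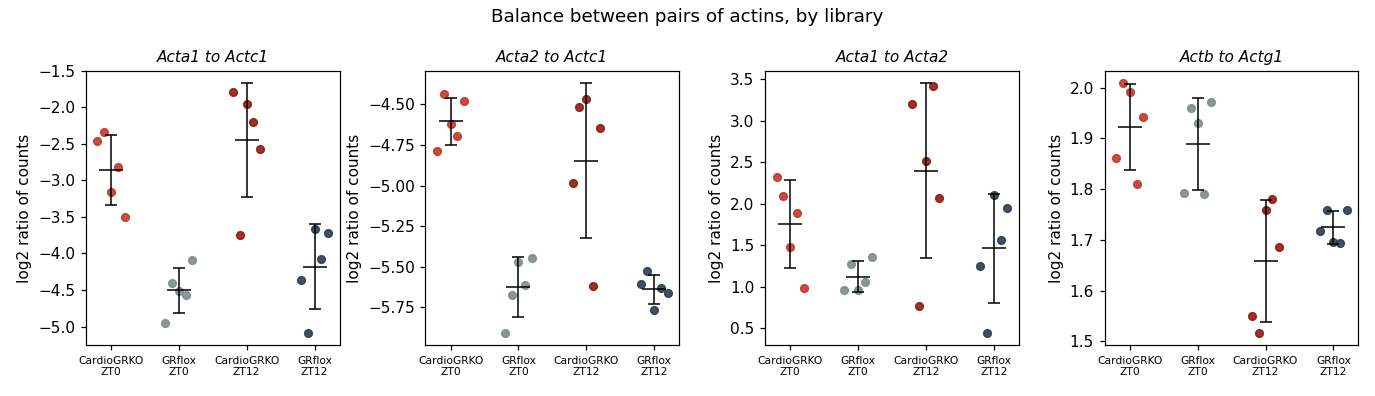
Log2 ratio of counts of 4 pairs of actins in each library, with the mean ± SD of 5, CardioGRKO left of GRflox at each time. The ratios of Acta1 and of Acta2 to Actc1 are higher in CardioGRKO with no overlap at ZT0 and with 1 CardioGRKO library in the GRflox range at ZT12, and the ratio of Actb to Actg1 is lower at ZT12 than at ZT0 in both genotypes.

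The comparison of ZT12 with ZT0 asks how the transcripts differ between the ends of the light phase. Actb, the beta-actin commonly used as a loading reference, was lower at ZT12 in both genotypes. It had 416, 382, 384, 396 and 351 CPM at ZT12 in CardioGRKO, against 522, 528, 560, 550 and 520 CPM at ZT0. In GRflox it had 401, 406, 403, 462 and 397 CPM at ZT12, against 603, 570, 571, 599 and 537 CPM at ZT0. The times did not overlap in either genotype. The log2 fold change was -0.47 ± 0.05 in CardioGRKO (adjusted p = 3.93e-07, rank 47 of 14007 genes by p) and -0.48 ± 0.05 in GRflox (adjusted p = 1.62e-07, rank 93).

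Actg1 was lower at ZT12 in GRflox, with 122, 120, 124, 143 and 117 CPM at ZT12, against 174, 146, 150, 173 and 137 CPM at ZT0. The log2 fold change was -0.32 ± 0.08 (adjusted p = 0.00551), and 4 of 5 libraries at ZT12 lay below all at ZT0. In CardioGRKO it was -0.20 ± 0.08 (adjusted p = 0.105). The log2 ratio of Actb to Actg1 was lower at ZT12 in both genotypes, by 0.26 in CardioGRKO, where it averaged 1.66 ± 0.12 at ZT12 and 1.92 ± 0.09 at ZT0, and by 0.16 in GRflox, where it averaged 1.73 ± 0.03 at ZT12 and 1.89 ± 0.09 at ZT0 (exact permutation test, adjusted p = 0.0317 each, with no overlap).

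Actc1 was lower at ZT12 in CardioGRKO by a small amount, with 10360, 9977, 10810, 11030 and 9068 CPM at ZT12 and the values at ZT0 given above. The log2 fold change was -0.15 ± 0.04 (adjusted p = 0.0341), and this call was lost in 5 of 26 other settings, with an adjusted p of up to 0.134: without the filter, with the 2 compared groups alone, and without replicate 5 at ZT0 or replicate 2 or 5 at ZT12. In GRflox Actc1 had 9590, 9561, 9594, 9638 and 9579 CPM at ZT12, all below every library at ZT0, with a log2 fold change of -0.13 ± 0.04 (adjusted p = 0.0518). That comes to 2 of 6 actins called in each genotype, all lower, where 9.17% of all genes were called in CardioGRKO and 17.3% in GRflox. The other muscle actins were not called between the times. For Acta1 the log2 fold change was 0.36 ± 0.29 in CardioGRKO and 0.26 ± 0.29 in GRflox (adjusted p = 0.509 and 0.593). For Acta2 it was -0.36 ± 0.14 in CardioGRKO and -0.15 ± 0.14 in GRflox (adjusted p = 0.108 and 0.5), and for Actg2 0.87 ± 0.29 in CardioGRKO and 0.12 ± 0.26 in GRflox (adjusted p = 0.0622 and 0.803). DESeq2 called Actg2 in CardioGRKO (adjusted p = 0.0417).

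Whether the genotype difference itself changed with time was tested by the interaction. None of the 6 actins was called by edgeR, none had an unadjusted p under 0.05, and DESeq2 called none either, where edgeR called 0.186% of all genes (26). On the log2 scale the interaction was 0.10 ± 0.41 for Acta1 (95% interval -0.74 to 0.94), -0.21 ± 0.19 for Acta2 (-0.61 to 0.19), 0.004 ± 0.07 for Actb (-0.14 to 0.15) and 0.75 ± 0.39 for Actg2 (-0.06 to 1.56). Each of these intervals spans changes of either sign, and those of Acta1 and Actg2 are wide.

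Libraries of the same group were also compared with each other. For each of the 15 pairs of actins, the deviations of log2 CPM from the group mean were correlated over 20 libraries. Of these pairs, Actb and Actg1 alone passed the threshold (Pearson's r = 0.797, permutation p = 0.00032, adjusted over 15 pairs 0.0048; Spearman's rho = 0.708, adjusted p = 0.0163), and without the 2 libraries farthest from the median r was 0.697. Acta1 and Acta2, both higher in CardioGRKO, did not (r = -0.222, permutation p = 0.544, adjusted 0.824; rho = -0.164). The CardioGRKO library lowest in Acta1 at ZT12, replicate 2, had 435 CPM of Acta2, and the one lowest in Acta2, replicate 4, had 2400 CPM of Acta1.

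On the same measure, the genes most like each alpha-actin among 11356 genes were described, without a test, since the points share libraries and depth. For Acta1 they were Adprhl1 (r = 0.857), Fam185a (0.857), Sntb1 (0.855), Cdv3 (0.849) and Prnp (0.848). Adprhl1 encodes a heart-enriched protein, Sntb1 a syntrophin of the dystrophin complex and Prnp the prion protein. Between the genotypes, Sntb1 had a log2 fold change of 0.89 ± 0.21 at ZT0 and 0.98 ± 0.19 at ZT12 and Adprhl1 0.26 ± 0.06 and 0.30 ± 0.06, all called, Fam185a was called higher at ZT0 alone, and Cdv3 and Prnp were called at neither time (adjusted p = 0.0636 to 0.394). For Acta2 the most alike were Atp2b1, a plasma membrane calcium pump (r = 0.786), Lrtm1 (0.766), Car8 (0.755), Fam114a1 (0.751) and Cnot2 (0.742). Without the 2 farthest libraries r was 0.187 for Lrtm1 and 0.752 for Cnot2. Lrtm1 was lower in CardioGRKO, opposite to Acta2, with a log2 fold change of -0.36 ± 0.10 at ZT0 and -0.48 ± 0.10 at ZT12 (adjusted p = 0.0162 and 0.000909), and the other 4 were not called. For Actc1 they were Tmem8b (0.800), Cmc2 (0.798), Slc18b1 (0.796), Xpnpep1 (0.795) and Ube2f (0.793).

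Counts of the lists below stand against 14.7% of all genes called between the genotypes at ZT0 and 21.1% at ZT12. Other targets of SRF and MRTF were called in both directions. Of 24 such genes, 4 were higher and 7 lower in CardioGRKO at ZT0, with a median log2 fold change of -0.16, and 4 were higher and 5 lower at ZT12, with a median of -0.12. The called share was 45.8% at ZT0 and 37.5% at ZT12. Ankrd1, a stretch-induced ankyrin repeat protein of the sarcomere, was higher by a log2 fold change of 1.80 ± 0.21 at ZT0 and 1.56 ± 0.21 at ZT12 (adjusted p = 1.7e-06 and 5.25e-06). For Ctgf, a matricellular growth factor, the log2 fold change was 1.10 ± 0.15 at ZT0 and 0.73 ± 0.15 at ZT12 (adjusted p = 1.28e-05 and 0.000771). Tagln, the smooth muscle protein SM22, was lower by a log2 fold change of -0.47 ± 0.10 at ZT0 (adjusted p = 0.00156). Without the shallowest library 3 were higher and 3 lower at ZT0. Of 22 regulators of SRF, 2 were higher and 4 lower at ZT0 (27.3% called), and 6 were higher and 6 lower at ZT12 (54.5% called). Fhl1 stands both in this list and among the targets. Hopx, a homeodomain protein that restrains SRF, was higher by a log2 fold change of 0.58 ± 0.09 at ZT0 and 0.67 ± 0.09 at ZT12 (adjusted p = 4.63e-05 and 3.52e-06). Gata6, a cardiac transcription factor, was lower, with a log2 fold change of -0.37 ± 0.05 at both times (adjusted p = 1.34e-05 and 5.39e-06).

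Of 13 genes of the fetal and stress programme other than actins, 8 were higher and none lower in CardioGRKO at ZT0. At ZT12, 7 were higher and none lower. The median log2 fold changes were 0.86 at ZT0 and 0.74 at ZT12. Ankrd1, Ctgf, Xirp1 and Tpm2 of this list also stand among the SRF and MRTF targets. Nppa, Myl4 and Myl7 also stand among the atrial markers. The called share was 61.5% at ZT0 and 53.8% at ZT12, and 7 were higher at ZT0 without the shallowest library. This list was chosen with its direction in these libraries known, so its count is not independent evidence. The skeletal myosin-binding protein gene Mybpc2 was higher by a log2 fold change of 1.13 ± 0.12 at ZT0 and 1.23 ± 0.12 at ZT12 (adjusted p = 5.17e-07 and 7.25e-08). Nppb, which encodes B-type natriuretic peptide, was higher by 1.53 ± 0.23 at ZT0 and 2.41 ± 0.24 at ZT12 on the log2 scale (adjusted p = 5.14e-05 and 1.2e-07).

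Markers of the cell types that also make these actins were read beside them. Of 10 smooth muscle markers, none was higher in CardioGRKO at either time, 5 were lower at ZT0 (2 without the shallowest library) and 1 was lower at ZT12, which makes 50% and 10% called. Tagln, Cnn1, Myh11 and Myl9 of the 10 also stand among the SRF and MRTF targets. Desmin, 1 of the 10, is abundant in cardiomyocytes too, and the 1 lower at ZT12 was its gene Des. The other 9 markers summed to 780.6 to 919.8 CPM in CardioGRKO and 936.1 to 997.9 CPM in GRflox at ZT0, and to 836.9 to 951.0 CPM in CardioGRKO and 938.4 to 992.6 CPM in GRflox at ZT12. Myh11, the smooth muscle myosin heavy chain, averaged 94.2 ± 15.3 CPM in CardioGRKO and 121 ± 8.86 CPM in GRflox at ZT0 (log2 fold change -0.36 ± 0.11, adjusted p = 0.0281). Their part in the level of Acta2 was not tested. Of 8 pericyte markers none was higher, 3 were lower at ZT0 (37.5%) and 2 at ZT12 (25%), and without the shallowest library 2 were lower at ZT0 and 1 at ZT12. Of 11 tested myofibroblast markers, 1 was higher and 1 lower at ZT0 (18.2%), of which none was lower without that library, and 2 were higher and 1 lower at ZT12 (27.3%). The median log2 fold change of the 11 was 0.02 at ZT0 and 0.10 at ZT12. The periostin gene Postn, chosen from them after its values were seen, was not among those called and does not stand for the list. The log2 fold change of Postn was 0.02 ± 0.13 at ZT0 and 0.15 ± 0.13 at ZT12 (edgeR, adjusted p = 0.95 and 0.433). Of 8 fibroblast markers none was called at either time. The part of pericytes, myofibroblasts and fibroblasts in the level of Acta2 was not tested either.

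Fast skeletal muscle genes, which accompany Acta1 in skeletal fibres, differed among themselves. The 12 listed summed to 146.0 to 169.4 CPM in CardioGRKO and 47.1 to 61.1 CPM in GRflox at ZT0, and to 126.4 to 170.4 CPM in CardioGRKO and 47.3 to 71.8 CPM in GRflox at ZT12. Casq1 held most of that sum in CardioGRKO. Group means were under 1 CPM for 7 of the 12 in CardioGRKO and for 8 in GRflox. The fast myosin heavy chains Myh1, Myh2 and Myh4 averaged at most 0.172 CPM in any group, and the group means of Tnnc2, Actn3 and Pvalb were at most 0.219 CPM. Of the 12 listed genes 6 were tested, of which 3 were higher and 1 lower in CardioGRKO at each time. The called share of the 6 was 66.7% at each time, beside 14.7% of all genes at ZT0 and 21.1% at ZT12. The part of these genes in the level of Acta1 was not tested. Casq1, the skeletal calsequestrin, averaged 129 ± 7.49 CPM in CardioGRKO and 25.1 ± 5.17 CPM in GRflox at ZT0, and Atp2a1, the fast calcium pump, 3.90 ± 0.54 CPM in CardioGRKO and 1.34 ± 0.34 CPM in GRflox. Myl1, a fast myosin light chain, was lower by a log2 fold change of -0.71 ± 0.23 (adjusted p = 0.0351).

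Of 34 genes of filament dynamics, 5 were higher and none lower in CardioGRKO at ZT0 (3 higher without the shallowest library), and 8 were higher and 3 lower at ZT12, with median log2 fold changes of 0.04 and 0.03. The called share was 14.7% at ZT0, the same as over all genes, and 32.4% at ZT12. Lmod3, a leiomodin that nucleates thin filaments, was higher by a log2 fold change of 0.58 ± 0.06 at ZT0 and 0.62 ± 0.06 at ZT12 (adjusted p = 4.65e-07 and 7.23e-08). Cfl2, the muscle cofilin that severs filaments, was higher by 0.32 ± 0.05 at ZT0 and 0.26 ± 0.05 at ZT12 on the log2 scale (adjusted p = 6.47e-05 and 0.000311). Of the filament genes, Cfl2, Tmod1, Lmod2, Nexn and Xirp1 also stand among the SRF targets, and Gsn among the fibroblast markers. The profilin gene Pfn2 was higher by 0.31 ± 0.05 at ZT0 and 0.25 ± 0.05 at ZT12 on the same scale (adjusted p = 0.000186 and 0.000909). Of 14 genes of actin folding and maturation, 3 were higher at ZT0, all of the chaperonin that folds actin (Cct8, Cct4 and Tcp1, by log2 fold changes of 0.15 to 0.20), and 1, Cct8, at ZT12, which makes 21.4% and 7.14% called. At ZT12 compared with ZT0, filament genes were lower in 6 of 34 in CardioGRKO, with none higher, and in 8 of 34 in GRflox, with 2 higher. The called share was 17.6% in CardioGRKO, beside 9.17% of all genes, and 29.4% in GRflox, beside 17.3% of all genes. Actr3, a subunit of the Arp2/3 complex that branches filaments, was lower by a log2 fold change of -0.22 ± 0.04 in CardioGRKO and -0.27 ± 0.04 in GRflox (adjusted p = 0.00128 and 7.11e-05). Srf itself was lower at ZT12, with a log2 fold change of -0.35 ± 0.07 in CardioGRKO and -0.37 ± 0.07 in GRflox (adjusted p = 0.00147 and 0.000412). Of the 22 SRF regulators, Srf included, 3 were lower and none higher in CardioGRKO (13.6% called). In GRflox 4 were lower and 1 higher (22.7% called). Of the 24 SRF and MRTF targets, 2 were higher and 2 lower in CardioGRKO (16.7% called). In GRflox 1 was higher and 5 lower (25% called). The targets had median log2 fold changes of -0.02 in CardioGRKO and 0.05 in GRflox. A link of Srf to the actins was not tested.

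**Figure D5:**
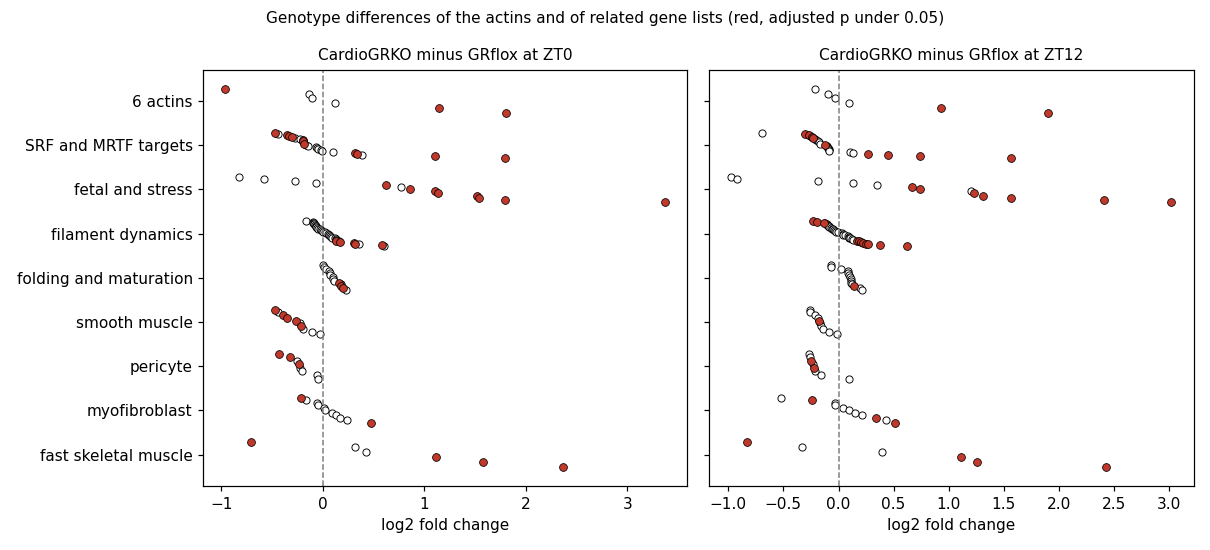
Log2 fold change between CardioGRKO and GRflox of the 6 actins and of the tested genes of 8 lists, 1 point per gene, at ZT0 (left) and ZT12 (right), with calls at an adjusted p under 0.05 in red. The fetal and stress genes that were called lie right of 0, the smooth muscle markers that were called lie left of 0, and Acta1 and Acta2 are the 2 actins far right of 0.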

How the data were processed

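The authors deposited raw whole-number counts for each gene. The submitters' processing notes name the build mm10 and the tools STAR 2.5.1, Subread 1.5.1 with featureCounts, and DESeq2 1.38.3. For the strand setting, multiply matching reads and annotation release, the sources used here give nothing. Lines of 1 gene were summed by Entrez identifier.

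Deposited counts were tested with edgeR 4.0.16 in R 4.3.3 (glmQLFit, glmQLFTest), TMM scaling (factors 0.961 to 1.04) and filterByExpr (minimum count 10, minimum total 15). The 4 group means were fitted to all 20 libraries, with Benjamini-Hochberg adjustment within each contrast over 14007 genes. The common biological coefficient of variation was 8.78%. Log2 CPM used a prior count of 2, ratios a pseudocount of 0.5 counts, and correlations 100000 permutations within groups. Transcript lengths are those of the longest principal transcript in GENCODE M21. No 2 libraries of a group agreed within sampling noise, at a chi-square per gene of 4.22 to 20.96.

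Alternatives were DESeq2 1.42.0, 2 other scalings, no filter, a replicate block, the 2 compared groups alone, and each library left out. The code was tested on simulated data. Named genes were the 6 actins, Nr3c1, up to 4 genes of each list with the smallest p between the genotypes (up to 2 between the times), marker genes for the tissue check, and the 5 genes most like each alpha-actin. Postn was chosen after its values were seen. The members and lists were chosen with earlier results of these data known. List counts without the shallowest library and the smooth muscle sum without Des were added after seeing the data. Python 3.11.15 with matplotlib 3.10.9 drew the figures.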

Additional observations from a re-analysis of the deposited data

Results flagged for a closer look

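Of 64 sets of 5 values checked for a library far from the rest, 2 were picked out, where chance picks about 1 in 20. Both are replicate 4 of GRflox at ZT12. Its Actb level was 462.1 CPM, with the other 4 libraries between 396.6 and 406.1 CPM. Its Actg1 level was 142.9 CPM, with the next at 124.3 CPM. Both cytoplasmic actins were thus highest in the same library. Without it, Actb differed between ZT12 and ZT0 in GRflox by -0.52 ± 0.05 on the log2 scale.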

How the results depend on the processing

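In 26 other settings, Acta1 and Acta2 stayed called between the genotypes at both times, as did Actb between the times in both genotypes and Actg1 between the times in GRflox. The log2 fold changes ranged from 1.66 to 1.93 (Acta1, ZT0), 1.73 to 2.12 (Acta1, ZT12), 1.075 to 1.196 (Acta2, ZT0) and 0.81 to 1.07 (Acta2, ZT12). Leaving out 1 library gave 16 to 33 interaction calls, against 26 with all, and DESeq2 gave 69. The replicate numbers showed no clear pairing of the libraries (r of deviations from -0.272 to 0.234 over 30 same-numbered pairs, of which 6 were best with their own number). Such a check cannot exclude a weak pairing. With the replicate block, calls numbered 2194, 3111, 1359, 2513 and 38 against 2060, 2951, 1284, 2423 and 26, Actg2 at ZT0 was at -0.89 (adjusted p = 0.0565) and Actg1 in CardioGRKO between the times at -0.21 (adjusted p = 0.0397). For the ratios, whose 5 pairs allow no exact p under 0.0625, the block kept the differences at 1.65 (Acta1 to Actc1, ZT0), 1.02 (Acta2 to Actc1, ZT0), -0.26 and -0.16 (Actb to Actg1 between the times in CardioGRKO and GRflox), none past the threshold. Leaving out 1 library gave them ranges of 1.52 to 1.81, 0.95 to 1.06, -0.295 to -0.229 and -0.19 to -0.14, with adjusted p of at most 0.0635 but none under 0.05, since 4 against 5 allows no p under 0.0159. Acta2 to Actc1 between the times in GRflox, not called, ranged from -0.0874 to 0.0273.

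Among log2 fold changes, signs that turned belonged to differences smaller than their SE in the main fit. That SE was large for the Acta1 interaction (0.10 ± 0.41) and for Actg2 between the times in GRflox (0.12 ± 0.26). The Actb interaction was -0.00111 with DESeq2 size factors and -0.00113 with DESeq2, and ranged from -0.0278 to 0.0472 with 1 library left out. Leaving out 1 library also gave -0.0693 to 0.312 for the Acta1 interaction, -0.0552 to 0.0149 for that of Actc1, -0.0853 to 0.0227 for Actg1 between the genotypes at ZT12 and -0.0201 to 0.331 for Actg2 between the times in GRflox. Library totals gave 0.0596 for Actg1 between the genotypes at ZT12 and 0.0144 for the Actc1 interaction. They also put 72% of the genotype calls at ZT0 on the higher side, against 50% with TMM, and 78.4% against 49.2% at ZT12, 54.1% against 48.2% for time in CardioGRKO and 36% against 47% in GRflox. The cause was not tested. Depth limits Actg2 most, with 3 counts in its lowest library. Calls gained without 1 library were Actc1 between the genotypes at ZT12 without CardioGRKO replicate 5 (0.14, adjusted p = 0.0142) and at ZT0 without CardioGRKO replicate 4 or 5 of ZT12 (0.12, adjusted p = 0.0479 and 0.0266), and between the times in CardioGRKO Acta2 without replicate 3 at ZT12 (-0.49, adjusted p = 0.0167), Actg1 without replicate 1 at ZT12 (-0.27, adjusted p = 0.0316) and Actg2 without replicate 4 at ZT0 or at ZT12 (1.17 and 0.99, adjusted p = 0.0246 and 0.0418). Actc1 between the times in GRflox was called in 10 of 20 such fits, with adjusted p of 0.0166 at the lowest. It was also called with DESeq2, with the 2 groups alone and with library totals (adjusted p = 0.0302, 0.00926 and 0.0116).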

Other observations

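Markers of cell types that make little muscle actin were counted in the same way. Of 8 endothelial markers, 5 were lower and none higher in CardioGRKO at ZT0 (4 lower without the shallowest library), and 5 were lower and none higher at ZT12. That is 62.5% called at each time, beside 14.7% of all genes at ZT0 and 21.1% at ZT12. They summed to 1347 to 1469 CPM in CardioGRKO and 1543 to 1629 CPM in GRflox at ZT0, and to 1134 to 1307 CPM in CardioGRKO and 1329 to 1451 CPM in GRflox at ZT12. Pecam1, an adhesion molecule of endothelial junctions, had a log2 fold change of -0.19 ± 0.04 at ZT0 and -0.22 ± 0.04 at ZT12 (edgeR, adjusted p = 0.00162 and 0.000219). Of 6 macrophage markers, none was called between the genotypes at either time. Of 5 tested atrial markers, Nppa, the atrial natriuretic peptide gene, was higher in CardioGRKO by a log2 fold change of 1.51 ± 0.31 at ZT0 and 1.31 ± 0.30 at ZT12 (edgeR, adjusted p = 0.00145 and 0.00272), and the other 4 were not called. Over the 5 the median log2 fold change was -0.58 at ZT0 and -0.79 at ZT12. Their called share was 20% at each time, beside 14.7% of all genes at ZT0 and 21.1% at ZT12.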
